A study of Mus musculus with 12 samples.

Results

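Gzma, Gzmb, Prf1 and Ccl5 are 4 of the 556 genes measured in the ileum of mice that were exposed to a macrolide in early life or left unexposed. The 4 genes were chosen by name with results of these mice already known, in which Gzmb and Ccl5 were among the largest rises of colonized over germ-free control mice and Gzmb was among the largest differences between the antibiotic effects. Their high values in colonized control mice therefore describe the choice and are given without a test.

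Total RNA came from the terminal ileum of 12 male C57BL/6 mice at week 7 (P50), 3 in each of 4 groups. SPF control mice were specific pathogen free, wild-type colonized and not exposed. SPF PAT (pulsed antibiotic treatment) mice came from the same kind of colony and received tylosin, a macrolide, in 1 pulse of 5 days from P5, through the drinking water of their dams. GF control mice were germ free and unexposed, and GF PAT mice were germ free and received the same tylosin pulse in autoclaved water. According to the paper, autoclaved water was used for exposing the SPF mice too. SPF and GF mice came from different colonies, so colony and colonization cannot be told apart, and litter and assay cartridge are not given in the labels. Transcripts were counted with the NanoString nCounter mouse immunology panel, which hybridizes 1 probe set per gene and counts reporters without amplification or sequencing. Values are log2 of the normalized count, so a difference of 1 is a 2-fold change, and since probes differ in efficiency the level of one gene is not set against that of another. The separate mice are biological replicates of a group, and their number limits the precision.

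Granzymes are serine proteases stored in the granules of cytotoxic T cells and natural killer cells, and perforin, the product of Prf1, forms the pores through which they reach the target cell. Granzyme B cleaves caspases and other substrates and starts apoptosis, whereas granzyme A is a tryptase with other substrates. Ccl5 (RANTES) is a chemokine that memory and effector CD8 T cells store and release, and it attracts leukocytes through chemokine receptors. In the small intestine these transcripts are typical of intraepithelial lymphocytes, which sit between epithelial cells, depend on interleukin 15 and carry the integrin CD103, CD8 and natural killer receptors. The samples were pieces of ileal tissue, in which such cells were measured together with epithelium and other immune cells.

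The promoters of the members are shown because the genes moved together in part, and because T-box, Runx and Stat5 factors are known regulators of cytotoxic genes. RefSeq promoter windows on GRCm38.p6, each from 250 bases before to 50 after the annotated start, were at hand for 3 of the 4 members, Gzma (Gene ID 14938), Gzmb (14939) and Prf1 (18646), and not for Ccl5 (20304). Capitals mark exact matches to any of 6 motifs, searched on both strands, namely T-box TCACACCT, Runx TGTGGT, Stat5 TTCNNNGAA, kappaB GGGANTTTC, AP-1 TGANTCA and CRE TGACGTCA. Gzmb lies at chr14:56262285-56262584 on the minus strand, Gzma at chr13:113100932-113101231 on the minus strand, and Prf1 at chr10:61297586-61297885 on the plus strand.
Gzmb: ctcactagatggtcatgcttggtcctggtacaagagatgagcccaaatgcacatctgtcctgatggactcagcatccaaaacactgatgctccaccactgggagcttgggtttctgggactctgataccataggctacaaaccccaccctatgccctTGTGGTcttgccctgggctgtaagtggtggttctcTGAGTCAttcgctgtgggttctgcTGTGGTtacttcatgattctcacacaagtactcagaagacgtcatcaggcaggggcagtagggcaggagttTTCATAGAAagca
Gzma: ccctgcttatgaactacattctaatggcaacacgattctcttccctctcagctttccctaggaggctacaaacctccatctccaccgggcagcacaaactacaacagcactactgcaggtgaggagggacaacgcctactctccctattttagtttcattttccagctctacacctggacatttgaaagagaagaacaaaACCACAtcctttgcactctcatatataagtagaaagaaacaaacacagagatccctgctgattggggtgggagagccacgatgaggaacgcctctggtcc
Prf1: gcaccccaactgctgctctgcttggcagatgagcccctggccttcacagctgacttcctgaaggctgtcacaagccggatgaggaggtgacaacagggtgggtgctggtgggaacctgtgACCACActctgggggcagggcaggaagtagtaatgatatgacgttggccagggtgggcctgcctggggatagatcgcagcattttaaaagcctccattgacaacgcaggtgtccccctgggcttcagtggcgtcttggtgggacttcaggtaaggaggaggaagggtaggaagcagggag
All 3 windows held the Runx letters, which are present in 16.8% of 32851 mouse promoters of the same length. In Gzmb they occurred on the gene's strand at -93 and -34 from the start, in Gzma on the opposite strand at -50, and in Prf1 on the opposite strand at -130. The Gzmb window also held an AP-1 match at -58, a motif found in 7.81% of promoters, and a Stat5 match at 38 bases after the start, found in 8.30%. The T-box, kappaB and CRE letters, held by 1.28%, 1.11% and 1.79% of promoters, did not occur in these 3 windows.

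Across the panel, total counts per mouse ranged from 600308 to 923395, with the highest in SPF control (806043 to 923395) and 600308 to 681370 in the other groups. The ileal epithelial genes Itln1, Pigr, Ccl25, Abcb1a, Mme and Dpp4 are markers of the labelled tissue and summed to between 134303 and 216590 normalized counts per mouse, while Cdh1 and Epcam were not measured here. With limma over all 12 mice and adjustment over 556 genes, 108 genes (19.4%) were higher and 126 (22.7%) lower in SPF control than in GF control mice. After PAT in SPF mice 78 genes (14.0%) rose and 68 (12.2%) fell, and these percentages are the background against which counts of genes are given.

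Gzmb, the apoptosis-inducing granzyme, showed the widest separation. In SPF control mice its log2 normalized count was 8.22, 8.15 and 8.78 in mice 2, 7 and 8. In SPF PAT mice it was 6.58, 6.15 and 5.94 in mice 21, 26 and 27. In GF control mice it was 4.93, 5.08 and 4.70 in mice 37, 38 and 39, and in GF PAT mice 5.51, 4.85 and 5.42 in mice 41, 42 and 43. The 3 SPF control mice lay above every other mouse, the 3 SPF PAT mice lay between them and all 6 GF mice, and the GF groups overlapped. The underlying counts were 355 to 527 in SPF control, 51 to 102 in SPF PAT, 26 to 30 in GF control and 29 to 49 in GF PAT mice.

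Gzma, the granzyme tryptase, had log2 normalized counts of 11.17, 11.17 and 11.44 in SPF control mice 2, 7 and 8. In SPF PAT mice 21, 26 and 27 the levels were 9.73, 9.33 and 8.69. They were 8.87, 8.34 and 8.05 in GF control mice 37, 38 and 39, and 8.94, 7.79 and 8.83 in GF PAT mice 41, 42 and 43. SPF control mice again stood above all others, and the lowest SPF PAT mouse fell within the range of both GF groups. Gzma was counted 2750 to 3336 times per SPF control mouse and 223 to 902 times in the other mice, so counting error was small against the spread between mice.

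Ccl5, the chemokine, had log2 normalized counts of 10.89, 11.19 and 10.93 in SPF control mice 2, 7 and 8. SPF PAT mice 21, 26 and 27 had 9.50, 9.07 and 8.55. GF control mice 37, 38 and 39 had 8.56, 7.94 and 7.90, and GF PAT mice 41, 42 and 43 had 8.64, 7.77 and 8.24. The order of the groups was that of Gzma, with SPF control mice apart and with SPF PAT mouse 27 inside the range of both GF groups.

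Prf1, the pore-forming partner of the granzymes, was read from few counts. Its log2 normalized counts were 5.17, 4.81 and 5.06 in SPF control mice 2, 7 and 8, and 3.82, 3.94 and 2.85 in SPF PAT mice 21, 26 and 27. They were 4.19, 3.27 and 3.70 in GF control mice 37, 38 and 39, and 4.15, 2.99 and 3.27 in GF PAT mice 41, 42 and 43. The SPF control mice were above the other 9 mice, among which the 3 groups overlapped. These levels rested on 35 to 43 counts in SPF control mice and on 6 to 19 in the others, and the counting error of 0.454 log2 in SPF PAT mice was close to the standard deviation of 0.598 between them.

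**Figure D1:**
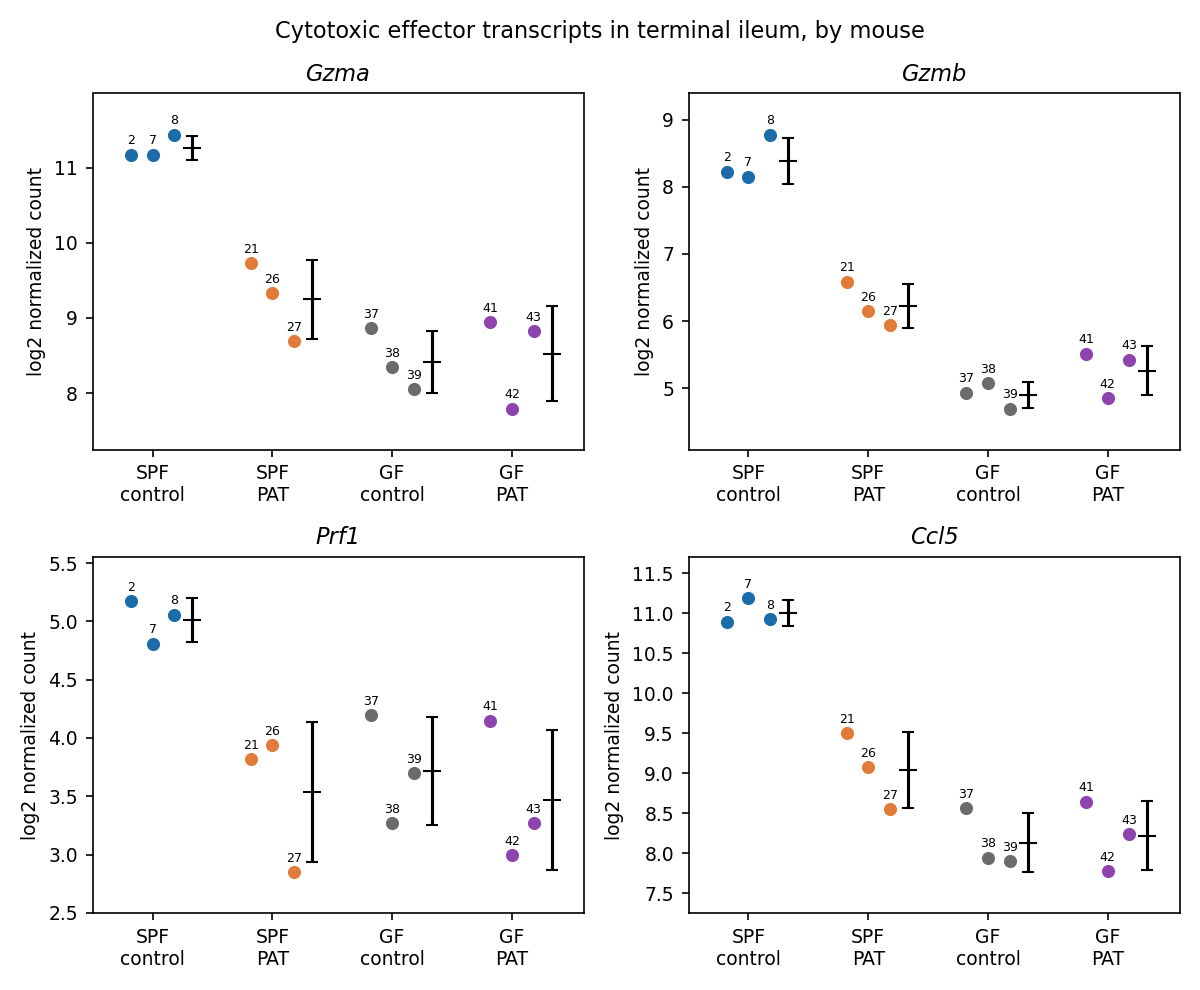
Log2 normalized count (y axis, own scale in each panel, not starting at 0) of Gzma, Gzmb, Prf1 and Ccl5 in each mouse, numbered, by group (x axis, 3 mice each), with the group mean and standard deviation in black. SPF control mice were highest in every panel, at 8.15 to 8.78 for Gzmb against 5.94 to 6.58 in SPF PAT mice, and only for Gzmb were the SPF PAT mice above all GF mice.

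The comparison of unexposed colonized and germ-free mice asks how far the presence of a microbiota goes with the level of these transcripts. Gzmb was 11.2-fold higher in SPF control than in GF control mice, a difference of 3.48 (SE 0.25) on the log2 scale, which was place 2 among the rises of all 556 genes. Ccl5 was 7.32-fold higher (2.87, SE 0.29), in place 3, and Gzma 7.16-fold higher (2.84, SE 0.36), in place 5. Prf1 was 2.45-fold higher (1.29, SE 0.37), in place 88, with a difference of 0.85 under median centring and 0.82 under quantile normalization. No background was subtracted from the counts, and with 8 to 18 counts of Prf1 in GF control mice a background share would lower its fold, which was not tested. In all 4 genes the SPF control mice lay above the GF control mice without overlap, as did 25.4% of all genes, and since this contrast led to the choice of Gzmb and Ccl5, nothing is read from that count. In bulk tissue, fewer cytotoxic cells and less of the transcript per cell cannot be told apart.

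Comparing SPF PAT mice with SPF control mice addresses what an early macrolide pulse had left behind at P50 in colonized mice. Gzmb was 4.47-fold lower in SPF PAT mice (-2.16, SE 0.25), in place 10 among the falls of all genes. Gzma was 4.03-fold lower (-2.01, SE 0.36) and Ccl5 3.91-fold lower (-1.97, SE 0.29), in places 15 and 17. Prf1 was 2.78-fold lower (-1.48, SE 0.37), in place 44, with -0.99 under quantile normalization. All 4 genes were lower without overlap, as were 18.2% of all genes, and this too is a description because it uses the SPF control mice. The comparison shares the SPF control mice with the one before it, so opposite signs in the pair are not independent of each other. The direction of each member's difference in both comparisons was the same under each of the 9 other settings that gave it a value and without any 1 of the 12 mice.

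The mean of the SPF PAT mice lay between those of SPF control and GF control mice for Gzma, Gzmb and Ccl5. On the log2 scale, as a description of the means, SPF PAT mice kept 37.9% of the gap for Gzmb, with single mice at 29.7% to 48.3%. They kept 31.5% for Ccl5 (14.4% to 47.5%) and 29.2% for Gzma (9.41% to 46.1%). For Prf1 the mean SPF PAT level was below that of GF control mice, at -14.2% of the gap, and the single mice spread from -67.3% to 17.0%. Mouse 21 kept the most of the gap for Gzma, Gzmb and Ccl5, and mouse 27 the least for all 4 genes.

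The position of SPF PAT mice relative to germ-free mice does not involve the SPF control mice. Gzmb was chosen in part for the difference between the PAT effects, which uses all 4 groups, so its differences in this and the next 2 comparisons are descriptions without a test. Gzmb in SPF PAT mice was 2.50-fold the level of GF control mice (a difference of 1.32, SE 0.25), with all 3 SPF PAT mice above all 3 GF control mice. No share over all genes was computed for that separation, so nothing is read from it. Ccl5 was chosen in a contrast that holds the GF control mice, so its differences from them are descriptions too, and here it was higher by 0.91 (SE 0.29). Gzma was higher by 0.83 (95% interval 0.03 to 1.63, adjusted p = 0.448 by limma), which did not pass the threshold of 0.05. Prf1 differed by -0.18 (-1.02 to 0.65, adjusted p = 0.937). Neither Gzma nor Prf1 was called by limma, where 1.44% of all genes (8 of 556) were called higher, or by Tukey HSD or voom.

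The comparison of both exposed groups, SPF PAT with GF PAT, shares no mouse with SPF control minus GF control, but both groups enter the difference between the PAT effects for which Gzmb was chosen. Gzmb was higher in SPF PAT mice by 0.96 (SE 0.25), and the groups did not overlap, a separation in this direction seen in 8.45% of all genes. Ccl5 was higher by 0.82 (95% interval 0.16 to 1.48, adjusted p = 0.301), Gzma by 0.73 (-0.07 to 1.52, adjusted p = 0.530) and Prf1 by 0.07 (-0.77 to 0.90, adjusted p = 0.986). Without GF PAT mouse 42 the difference of Gzma was 0.36. None of the 3 tested genes was called by limma, although the unadjusted interval of Ccl5 lay above 0, and 0.899% of all genes were called higher. The voom model called 19 genes, of which none was a member. The 5 genes called higher by limma, Nfil3, Saa1_2, Tnfrsf17, Bst1 and Pla2g2a, are named after their values were seen.

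In germ-free mice the exposed and unexposed groups overlapped in all 4 genes. GF PAT minus GF control was 0.36 (SE 0.25) for Gzmb and 0.08 (SE 0.29) for Ccl5, which are descriptions. It was 0.10 for Gzma (95% interval -0.70 to 0.90, adjusted p = 0.925) and -0.25 for Prf1 (-1.09 to 0.59, adjusted p = 0.767), so neither of these was called. The sign was unsettled for 3 of the genes, with -0.088 for Gzma and -0.11 for Ccl5 under median centring and -0.073 for Gzmb under quantile normalization. Limma called 0% of all genes in this comparison, 28 genes had an unadjusted p under 0.05, Tukey HSD called 0 genes and voom called 2, neither of them a member. The PAT effect in SPF mice minus that in GF mice was -2.52 (SE 0.35) for Gzmb, -2.11 (SE 0.50) for Gzma, -2.05 (SE 0.42) for Ccl5 and -1.23 (SE 0.53) for Prf1 (-0.41 with quantile normalization and -0.68 with median centring), given without a test because Gzmb was chosen in part for this difference.

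**Figure D2:**
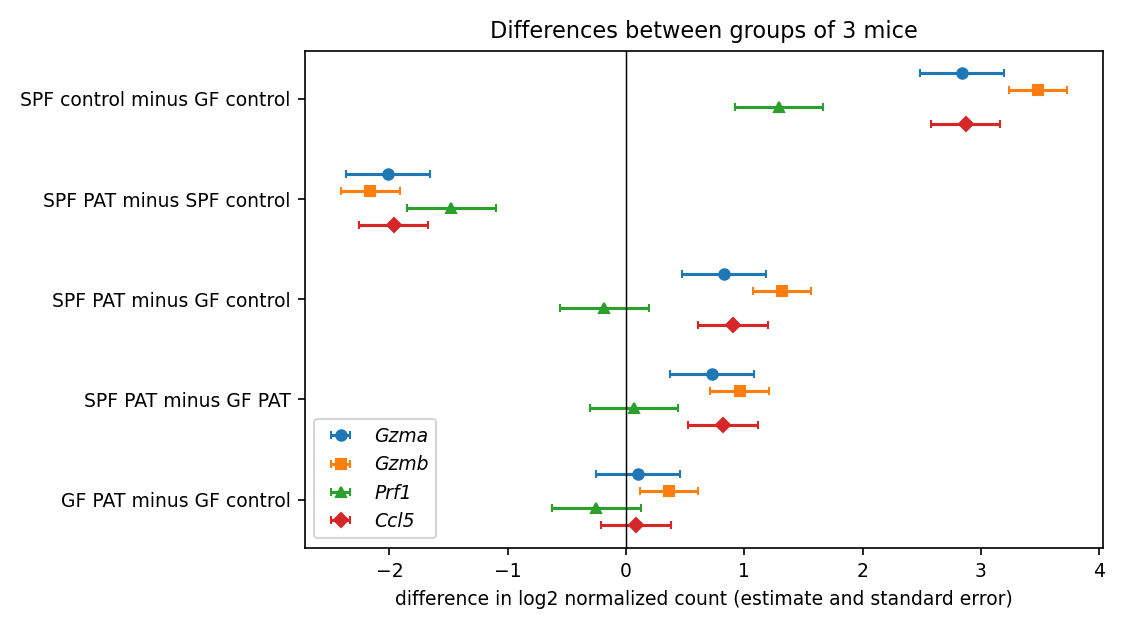
Difference in log2 normalized count (x axis) for 5 comparisons between groups of 3 mice (y axis), with 1 symbol per gene and its limma standard error. Gzma, Gzmb and Ccl5 lay near 3 for SPF control minus GF control and near -2 for SPF PAT minus SPF control, Prf1 was closer to 0 in both, and all 4 lay between -0.25 and 0.36 for GF PAT minus GF control.

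The order of the mice within the exposed groups was similar between the 4 genes, and that within the control groups was less so. Mouse 27 was the lowest of the SPF PAT mice in all 4 genes, and mouse 21 was the highest in Gzma, Gzmb and Ccl5. Mouse 42 was the lowest and mouse 41 the highest of the GF PAT mice in all 4. Among SPF control mice, mouse 7 was the lowest in Gzma, Gzmb and Prf1 and the highest in Ccl5. Among GF control mice, mouse 37 was the highest in Gzma, Prf1 and Ccl5, and mouse 38 was the highest in Gzmb and the lowest in Prf1. After each gene was centred on its mean over the 12 mice, Gzma and Ccl5 differed by a mean of 0.134 log2 per mouse, the closest pair, followed by Gzmb and Ccl5 (0.236) and Gzma and Gzmb (0.258). Prf1 was farther from Ccl5 (0.589), Gzma (0.580) and Gzmb (0.779). All these distances are descriptions over 12 mice that share the 4 groups, and part of them is the size of the group differences.

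The T cell marker genes moved in the same directions as the 4 members. Cd3d, Cd3e and Cd247, which encode signalling chains of the T cell receptor complex and were the 3 of 6 markers measured, were all called higher in SPF control than in GF control mice and all called lower in SPF PAT than in SPF control mice. The calls after PAT held under 8, 13 and 7 of 21 other settings for Cd3d, Cd3e and Cd247, and the direction under all 21. Their summed normalized counts were 486 to 722 in SPF control, 155 to 419 in SPF PAT, 120 to 272 in GF control and 203 to 346 in GF PAT mice. Of 7 measured markers of CD8 and intraepithelial lymphocytes, 5 were called higher in SPF control than in GF control mice (Cd8a, Ccr9, Cd7, Cxcr6 and Cd160) and 4 of these, all but Cd160, were called lower in SPF PAT mice. Cd8a, the coreceptor chain, was higher by 2.12 (SE 0.34, adjusted p = 0.00116) and then lower by 1.79 (SE 0.34, adjusted p = 0.00545 by limma). The summed CD8 and intraepithelial markers were 1294 to 1481 in SPF control mice, above the 523 to 792 of the other 9 mice.

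Relative to the T cell markers, the differences of Gzma, Gzmb and Ccl5 from SPF control mice were smaller but kept their direction, while those between SPF PAT and GF PAT mice were larger. Each member was set against the mean log2 level of Cd3d, Cd3e and Cd247 in the same mouse, and this ratio shows unequal change without saying which transcript stayed the same. The difference between SPF control and GF control mice was then 1.54 for Gzmb, 0.93 for Ccl5 and 0.90 for Gzma, and in each gene the groups did not overlap. The difference between SPF PAT and SPF control mice was -0.79 for Gzmb, -0.64 for Gzma and -0.60 for Ccl5, with the groups narrowly apart in Gzmb and Ccl5 and overlapping in Gzma. Gzmb was at most 0.38 in SPF PAT and at least 0.40 in SPF control mice, and Ccl5 at most 3.23 and at least 3.32. For Prf1 the direction turned, with SPF control below GF control mice by 0.65, at -2.94 to -2.13 against -2.10 to -1.50, and with SPF PAT near SPF control mice (-0.11). This ratio too rests on the few counts of Prf1, without background subtraction. SPF PAT minus GF PAT was 1.11 for Gzmb, 0.97 for Ccl5, 0.88 for Gzma and 0.22 for Prf1 relative to these genes, above the differences in level, with overlap in Gzma and Prf1. GF PAT minus GF control was -0.62 for Gzma, -0.36 for Gzmb and -0.64 for Ccl5 relative to these genes, where the differences in level (0.10, 0.36 and 0.08) had no settled sign, and -0.97 for Prf1. By this ratio the GF groups were apart in Prf1 and narrowly in Ccl5 (at most 2.254 in GF PAT, at least 2.260 in GF control mice). They overlapped in Gzma and Gzmb. The mean of the CD3 genes itself was 6.29 in GF PAT and 5.56 in GF control mice, although none of the 3 was called between these groups. Summed B cell markers were 1849 to 5296 in GF PAT and 821 to 3330 in GF control mice. How far the lymphoid tissue in each piece sets these ratios was not tested.

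The members were also set against the mean of Cd8a and Cd8b1, the CD8 chains, which weighs both equally although Cd8b1 had only 2 to 23 counts per mouse. SPF control minus GF control was 1.79 for Gzmb, 1.18 for Ccl5, 1.15 for Gzma and -0.40 for Prf1. SPF PAT minus SPF control was -0.66 for Gzmb, -0.51 for Gzma, -0.46 for Ccl5 and 0.03 for Prf1, with the groups narrowly apart in Gzmb and Ccl5 and overlapping in Gzma and Prf1. Gzmb was at most 2.003 in SPF PAT and at least 2.044 in SPF control mice, and Ccl5 at most 4.93 and at least 5.04. GF PAT minus GF control was -0.42 for Gzma, -0.16 for Gzmb, -0.44 for Ccl5 and -0.77 for Prf1, with the groups apart in Prf1 alone. Here too the reference was higher in GF PAT (mean 4.73) than in GF control mice (4.21). SPF PAT minus GF PAT was 1.30 for Gzmb, 1.16 for Ccl5, 1.06 for Gzma and 0.40 for Prf1, where Prf1 overlapped. For Gzmb the ratio to CD8 was 1.74 to 2.003 in SPF PAT mice and 0.32 to 0.87 in GF PAT mice. The ratios were not tested, and no share over all genes was computed for them.

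**Figure D3:**
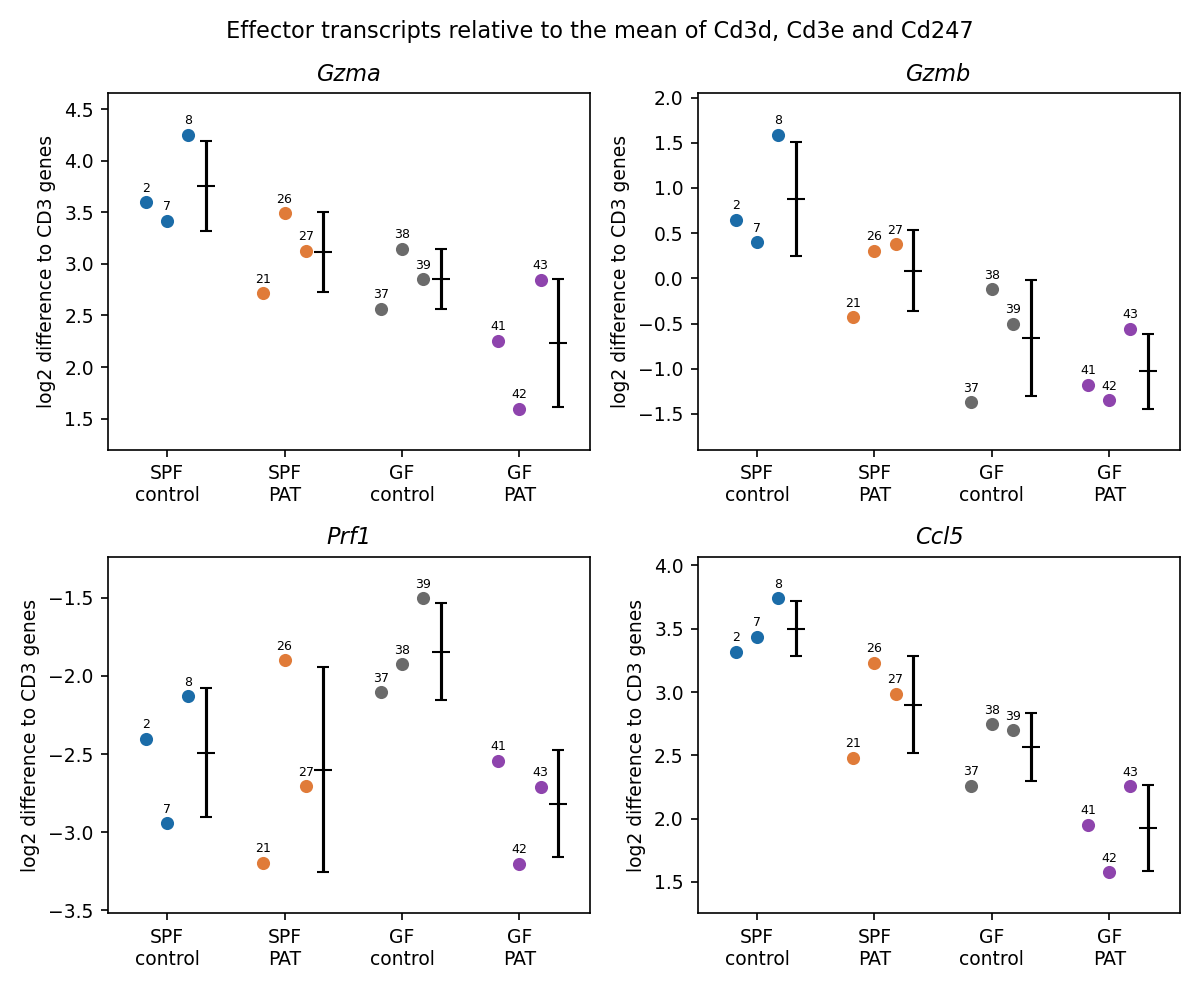
Log2 normalized count of each member minus the mean log2 level of Cd3d, Cd3e and Cd247 in the same mouse (y axis, own scale per panel), by group (x axis, 3 numbered mice each), with mean and standard deviation in black. SPF control mice were above GF control mice for Gzma, Gzmb and Ccl5, by 0.90, 1.54 and 0.93, and below them for Prf1, by 0.65.

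Markers of other cells moved as well, and their part in the results was not tested. Myeloid markers were called higher for 3 of 6 in SPF control than in GF control mice and lower for 3 of 6 in SPF PAT mice, with summed counts of 1407 to 1935 in SPF control and 1037 to 1426 in the other mice. Of those called lower after PAT, Itgam (-0.90) was called under 8 of 21 settings and not without mouse 21, and S100a8 and S100a9 under 15 of 20 each. S100a8 had only 4 to 44 counts per mouse and S100a9 4 to 65. Il17a, a cytokine of CD4 T cells, was called higher by 1.68 in SPF control than in GF control mice and lower by 1.38 in SPF PAT mice, the second under 13 of 20 settings. It was read from only 4 to 26 counts per mouse. The other measured CD4 T cell markers, Cd4 (0.70 and -0.71) and Foxp3 (0.12 and -0.38), were called in neither comparison. Of 6 epithelial markers, 4 were called lower and 1, Pigr, which carries immunoglobulin A across the epithelium, was called higher (by 0.77, under 13 of 21 settings) in SPF control than in GF control mice. After PAT in SPF mice 4 were called higher, and Pigr did not pass (-0.59, adjusted p = 0.0896). B cell markers varied mainly between single mice, from 785 to 6289 summed normalized counts, and mouse 21 had 5398 where the other SPF PAT mice had 785 and 790. Of these markers Blnk, an adaptor of the B cell receptor, was called higher by 0.42 (adjusted p = 0.0397) in SPF control than in GF control mice and lower by 0.46 (adjusted p = 0.0429 by limma) in SPF PAT mice, under 7 and 6 of 21 settings, and with median centring the first difference was -0.023. Of 2 endothelial markers Cdh5, the endothelial cadherin, was called lower by 0.77 (adjusted p = 0.00589) in SPF control than in GF control mice and not called after PAT (0.42, adjusted p = 0.0910 by limma), and Pecam1 was called in neither. Without mouse 21, whose T cell marker sum of 419 was also the highest of its group, the SPF PAT minus SPF control differences were -2.34 for Gzmb, -2.25 for Gzma and -2.19 for Ccl5. Of 3 measured natural killer cell markers, Klra8 differed by -0.00094, Eomes by 0.61 and Ncam1 by -0.85 between SPF control and GF control mice. Their sum was 162 to 229 in SPF control and 254 to 377 in GF control mice and consisted mainly of Ncam1, with 183 to 360 counts against at most 17 for Klra8 and 12 for Eomes. No measured marker of these cell types had a count of 0 in any mouse.

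Among 7 measured of 14 other effector molecules, Fasl alone was called. Fasl, the death receptor ligand of cytotoxic cells, was higher in SPF control than in GF control mice by 1.19 (SE 0.24, adjusted p = 0.00364 by limma) and lower in SPF PAT mice by 0.96 (SE 0.24, adjusted p = 0.0182), calls that held under 19 and 16 of 21 other settings. The cytokine genes Ifng, Tnf, Lta and Ltb were not called in either comparison. Ifng, the main cytokine of these cells, had a difference of 0.04 (SE 0.46) between SPF control and GF control mice and was read from only 3 to 14 counts. Ctsc, the protease that activates progranzymes, differed by -0.06 (SE 0.16), and Tnfsf10 (TRAIL) by -0.05 (SE 0.14). The median difference of the list was 0.59 for SPF control minus GF control and -0.89 for SPF PAT minus SPF control, against 0.08 and -0.02 over all genes. Both list medians were the values of Lta (SE 0.90 in each comparison), which was not called.

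Of 16 measured genes among 25 natural killer receptors, 5 were called higher and 1 lower in SPF control than in GF control mice. Those higher were Cd226 (DNAM-1, an activating receptor) by 1.38, Klrd1 (CD94) by 1.33, Klrb1 by 1.12, Cd160 by 0.75 and Klrc1 (NKG2A, the partner of CD94) by 0.54, with adjusted p between 0.00251 and 0.0243, although with quantile normalization Klrc1 was -0.05 and not called. The Klrb1 call held under 14 of 20 other settings and the Cd160 call under 17 of 21. The share of 5 in 16 stood against a background of 19.4%. After PAT in SPF mice Cd226, Klrd1 and Klrc1 were called lower, by 1.09, 0.77 and 0.41, where Klrc1 was 0.22 and not called with quantile normalization. These calls held under 8, 6 and 10 of 21 other settings, in which leaving out each of the 12 mice is counted. Ncam1 (CD56, which is also a neural adhesion molecule) went the other way, being lower in SPF control than in GF control mice by 0.85 and higher in SPF PAT than in SPF control mice by 0.63, a call held under 11 of 21 settings. The Klra (Ly49) receptors Klra1, Klra4, Klra5, Klra6, Klra7, Klra8 and Klra21, which are near-identical paralogs, and Klrc2 had at most 19 counts in any mouse and none was called. Klrk1 (NKG2D) differed by 0.52 (adjusted p = 0.0533) and Cd244 by 0.25 (adjusted p = 0.0751).

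Among 14 measured of 17 transcription factors and interleukin 15 signalling genes, 7 were called higher and 2 lower in SPF control than in GF control mice. Runx3, the Runx factor of CD8 T cells, was higher by 1.46 (SE 0.30, adjusted p = 0.00445) and then lower in SPF PAT mice by 1.03 (SE 0.30, adjusted p = 0.0357 by limma), a call held under 12 of 21 settings. Tbx21 (T-bet) was higher by 0.48 (called under 14 of 21 settings) and lower after PAT by 0.68, and Irf1 was higher by 0.54 and lower after PAT by 0.76. Runx1 was higher by 0.40 (-0.04 with median centring, and called under 13 of 21 settings) without a called change after PAT. Eomes, the other T-box factor, was read from 2 to 12 counts and was not called, and Prdm1 (Blimp-1) was called only after PAT, lower by 0.72, under 12 of 21 settings and not without mouse 21.

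The interleukin 15 pathway was measured from the cytokine to its receptor chains and kinases. Il2rb and Il2rg, the chains through which interleukin 15 signals, were higher in SPF control than in GF control mice by 0.92 and 1.48, and Jak3, the kinase bound to Il2rg, by 1.23, calls that held under 16, 14 and 21 of 21 other settings. After PAT in SPF mice Il2rb was lower by 0.80 (adjusted p = 0.0440, a call held under 7 of 21 settings), while Il2rg (-0.997, adjusted p = 0.144) and Jak3 (-0.74, adjusted p = 0.0543) did not pass. Il15, the cytokine that maintains intraepithelial lymphocytes, was lower in SPF control than in GF control mice by 1.47 (SE 0.13, adjusted p = 6.74e-05) and higher in SPF PAT than in SPF control mice by 1.11 (SE 0.13, adjusted p = 0.00082 by limma). Its mean log2 level was 7.02 in SPF control, 8.13 in SPF PAT and 8.49 in GF control mice. Il15ra, which presents the cytokine, differed by 0.03 and -0.18 in these comparisons, and Stat5a and Stat5b were not called in either. Jak1 was lower in SPF control than in GF control mice by 0.48.

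Other chemokines that share receptors with Ccl5 were measured as well, and the receptor Ccr3 was called in neither comparison. Of these chemokines, Ccl8 was higher by 2.47, Ccl4 by 1.30 and Ccl2 by 1.29 in SPF control than in GF control mice, and of these Ccl8 alone was called lower after PAT, by 1.96 (adjusted p = 0.00179). Ccl11 (eotaxin) went the other way, lower by 0.84 in SPF control than in GF control mice and higher by 0.81 in SPF PAT than in SPF control mice, the second called under 16 of 21 settings. Ccl3, Ccl7 and Ccl24 were not called. In the 3 comparisons without SPF control mice, limma called none of the 46 genes of these 4 lists, 3 or 4 of them had an unadjusted p under 0.05, Tukey HSD called none, and voom called 1, Il15, in SPF PAT minus GF PAT (-0.49).

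**Figure D4:**
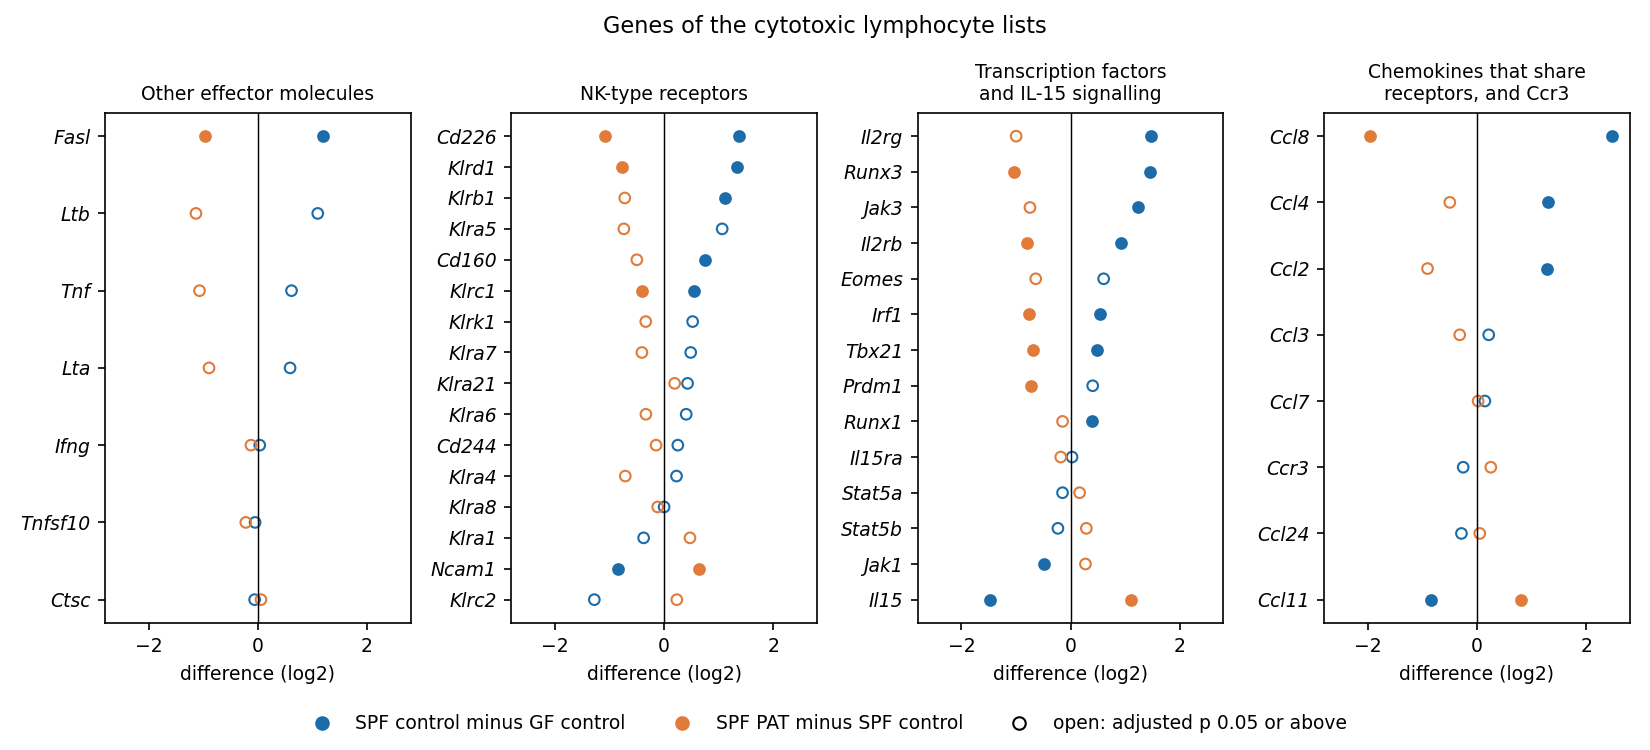
Difference in log2 normalized count (x axis) of genes (y axis) of 4 lists, for SPF control minus GF control (blue) and SPF PAT minus SPF control (orange), where filled points passed an adjusted p of 0.05 in limma and open points did not. Genes far to the right in blue were mostly to the left in orange, such as Ccl8 at 2.47 and -1.96, while Il15 ran the other way, at -1.47 and 1.11. Both comparisons hold the SPF control mice, with opposite sign, so mirrored differences of these genes are not independent of each other.

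The 3 panel genes whose profile over the 12 mice lay closest to each member included the chemokines Ccl8, Ccl20, Cxcl9 and Ccl22. Closeness was the mean absolute difference of the gene-centred log2 levels over the 12 mice, among 537 genes with a count in every mouse. Ccl8, a ligand shared with Ccl5 receptors, was the nearest gene to Gzma (0.314) and Ccl5 (0.349) and was second for Gzmb (0.470). Gzma was followed by H2-Ab1 (0.373), a class II chain, and Saa3 (0.376), an acute phase protein. Gzmb was nearest to Nos2 (0.465), the inducible nitric oxide synthase, with Cfi, complement factor I, in the third place (0.475). Ccl5 had Ccl20 (0.353) and H2-Ab1 (0.367) next, and Prf1 had Cxcl9 (0.248), Ccl22 (0.259) and the activating receptor Cd226 (0.283). For Gzma, Gzmb and Ccl5 these outside genes were farther than the nearest other member, which is a description, since the choice of Gzmb and Ccl5 for a like group difference in part sets how close they lie. Prf1 lay nearer to its 3 outside genes than to any member.

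**Figure D5:**
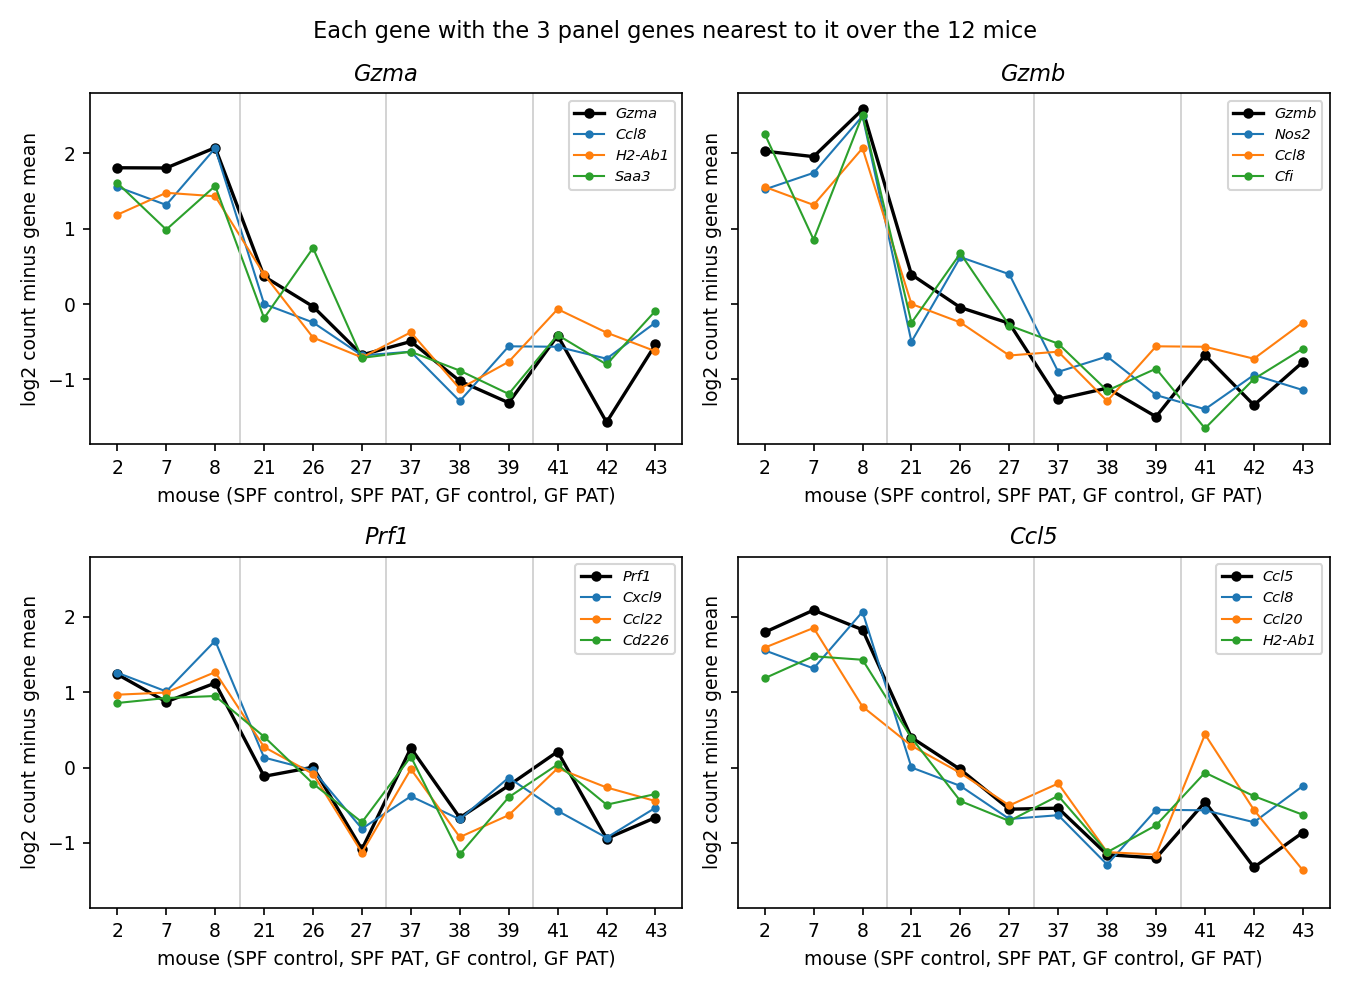
Log2 normalized count minus the mean of the gene over all mice (y axis) for each member (black) and its 3 nearest panel genes (colours), across 12 mice ordered by group (x axis, groups separated by grey lines). The mean distance between the lines was 0.248 to 0.283 for Prf1 and 0.465 to 0.475 for Gzmb, whose rise in SPF control mice 2, 7 and 8 exceeded that of its neighbours in most of these points.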

How the data were processed

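Values were deposited for 556 genes in 12 mice, after the authors normalized NanoString counts with DESeq2 and took log2. A further 28 entries (14 reference genes, 8 negative and 6 positive control probes) held no value, which left no way to scale by reference genes or to set a background level. Dividing out the size factors (0.8301 to 1.25) gave whole counts for every nonzero value within 0.01, and a count of 0 had been written as 0. The mice were separate libraries by this measure, as at most 28 of 556 counts were identical between any pair of mice.

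The log2 values were fitted with limma 3.58.1 in R 4.3.3, with 1 mean per group over all 12 mice, eBayes and Benjamini-Hochberg adjustment over 556 genes at a threshold of 0.05. The scripts were tested on simulated data. The members, lists, markers, motifs and comparisons were chosen with earlier results of these data known, and no p is given for Gzmb, or for Ccl5 in comparisons with GF control mice, or for other members in comparisons with SPF control mice, since the choice used those values. The genes named are the members, the 3 panel genes nearest to each, and the genes of 4 lists and of the cell type markers. Of the lists, 1 gene is not reported here. Alternatives were Tukey HSD as in the methods, an intensity trend, robust variance, a fit to the compared groups alone, genes averaging at least 20 normalized counts, quantile normalization, centring on the median, total count scaling with log2 of the count plus 1, voom on the recovered counts, and leaving out each mouse.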

Additional observations from a re-analysis of the deposited data

Results flagged for a closer look

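The PAT effect in SPF mice was compared with that in GF mice for each of 88 genes (the members, the genes of the lists, the cell type markers and the genes nearest to the members), and the genes given here are those in which the difference between both effects was large against its error. Of these 88 genes 23 were flagged, where limma called 95 of all 556 genes for this difference. The flagged genes include members and their nearest genes, which were chosen for this pattern, so nothing is read from setting these counts side by side. The T cell and CD8 markers Cd3e, Cd8b1, Cd160 and Cd244 were not flagged. For the members, and for the genes named because their profiles lay nearest to the members (Ccl8, H2-Ab1, Saa3, Ccl22 and Cxcl9), the values are a description without a test, because they were chosen for this pattern. The SPF effect minus the GF effect was -2.52 for Gzmb (-2.16 in SPF against 0.36 in GF mice), -2.11 for Gzma (-2.01 against 0.10) and -2.05 for Ccl5 (-1.97 against 0.08). Among the nearest genes it was -2.27 for Ccl8, -2.02 for H2-Ab1, -1.91 for Saa3, -1.68 for Ccl22 and -1.28 for Cxcl9. Of the list genes it was -1.17 for Fasl (adjusted p = 0.0417 by limma), with -0.96 in SPF and 0.21 in GF mice. Il15 had the opposite sign, at 1.07 (adjusted p = 0.0103), with 1.11 in SPF and 0.04 in GF mice. Among markers of T cells and of CD8 and intraepithelial lymphocytes it was -2.23 for Cd247, -2.22 for Cd8a, -2.16 for Cd3d, -1.56 for Cd7, -1.29 for Ccr9 and -1.12 for Cxcr6, with adjusted p between 0.0148 (Cd7) and 0.0417 (Cd3d) by limma. Of the other immune markers it was -2.87 for S100a8, -2.13 for S100a9 and -1.92 for Il17a, with adjusted p of 0.0294, 0.0391 and 0.0322 by limma. The effects were -2.04 in SPF against 0.83 in GF mice for S100a8, -1.67 against 0.46 for S100a9 and -1.38 against 0.55 for Il17a. These genes were read from few counts, 4 to 44, 4 to 65 and 4 to 26 per mouse. Among the epithelial markers it was 1.70 for Abcb1a, 1.31 for Mme, 1.01 for Ccl25 and 0.82 for Dpp4, with adjusted p between 0.00939 (Abcb1a) and 0.0322 (Dpp4) by limma. The epithelial markers Pigr and Itln1 were not flagged. Every adjusted p in this paragraph belongs to a gene shown because it passed the threshold. The lists and markers were chosen with earlier results known, so these values are descriptions.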

How the results depend on the processing

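No paired analysis was possible because the labels give no replicate numbers shared between groups. Of the 9 alternatives beside leaving out mice, median centring moved the median of all genes by -0.44 for SPF control minus GF control and by 0.36 for SPF PAT minus SPF control. Under it the differences were 3.04 (Gzmb) and 2.43 (Ccl5) for the first, -1.81 (Gzmb) for the second, and -0.088 (Gzma) and -0.11 (Ccl5) for GF PAT minus GF control. The SPF effect minus the GF effect became -1.57 (Gzma), -1.98 (Gzmb), -0.68 (Prf1) and -1.50 (Ccl5). With quantile normalization Gzmb was 3.002 for SPF control minus GF control, GF PAT minus GF control was -0.073 (Gzmb) and -0.0054 (Ccl5), and the SPF minus GF effect was -1.81 (Gzmb) and -0.41 (Prf1). Prf1 in SPF PAT minus GF PAT was -0.024 with total count scaling and -0.025 with voom, and it had no value under the minimum mean count. Gzmb in SPF PAT minus GF control, a description, was 1.32 with Tukey HSD and with only the groups compared, 1.24 with median centring and 1.12 with quantile normalization. The causes were not tested.

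Leaving out each mouse gave 1.14 to 1.46 for Gzmb in SPF PAT minus GF control. The sign was unsettled for GF PAT minus GF control in Gzma (-0.11 to 0.47) and Ccl5 (-0.13 to 0.31), and for Prf1 in SPF PAT minus GF control (-0.41 to 0.16) and SPF PAT minus GF PAT (-0.17 to 0.41).

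Counts of genes past the threshold were 234 for SPF control minus GF control (142 with Tukey HSD), and 146 for SPF PAT minus SPF control (55 with Tukey HSD, 76 with only the groups compared, 64 to 232 without 1 mouse, lowest without mouse 2 and highest without mouse 21). They were 0 for GF PAT minus GF control (2 with voom, 0 to 1 without 1 mouse, the 1 being Irf4 without mouse 37). For SPF PAT minus GF control there were 12 (2 with Tukey HSD, namely Lcp2 and Tigit, 0 with only the groups compared, 0 with median centring, 6 with quantile normalization, 27 with voom, 1 to 11 without 1 mouse). For SPF PAT minus GF PAT there were 8 (1 with Tukey HSD and 1 with median centring, Nfil3 in both, 0 with only the groups compared, 15 with total count scaling, 19 with voom, 1 to 11 without 1 mouse). For the difference between effects there were 95 (143 with voom, 35 to 217 without 1 mouse). Over the alternatives, the natural killer receptors called higher in SPF control than in GF control mice numbered 2 to 7 and those called lower after PAT 0 to 6. The transcription factor and interleukin 15 genes numbered 3 to 7 and 0 to 6. Il15, Runx3, Jak3, Klrd1, Ncam1, Ccl8 and Ccl11 stayed called under all 21 settings for SPF control minus GF control, and Il15 and Ccl8 also for SPF PAT minus SPF control. Of the 3 genes nearest to each member, 1 to 3 were among the nearest 3 again under each other setting or without 1 mouse.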
